A study of Mus musculus and Rattus norvegicus with 24 samples.

Results

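The 4 cardiac troponin genes, Tnni3, Tnni1, Tnnt2 and Tnnc1, were followed by name through all 24 single cells of the series, as 4 of the 9595 genes in the count table. Transplanted cells were cardiomyocytes made from a mouse embryonic stem cell line with the genotype mESCIsl1-Cre; Rosa-RFP; aMHC-GFP, injected into neonatal rat hearts and recovered after 30 days in vivo. Adult cells were wild-type adult rat cardiomyocytes from ventricular tissue, and cultured cells were cardiomyocytes of the same mouse line kept for 30 days in vitro. Each group held 8 cells, named A to H, and all were aligned to the mouse genome. In this line Cre is driven from Isl1, a gene of cardiac progenitors, and the green reporter from the alpha myosin heavy chain promoter of heart muscle, so both stem cell groups come from 1 engineered line. Summed counts were 1302871 in transplanted, 1271528 in adult and 206178 in cultured cells, with 88796 to 344224, 108546 to 223744 and 16099 to 60789 counts per cell. No animal or culture is named for any cell, so each group was treated as 1 sample and no test between groups was made. A level in CPM is the group's summed count, or a cell's count, per 1000000 counts, and brackets hold exact 95% intervals, which cover counting error of amplified reads only. Before the levels are read, 3 cultured libraries stand apart from their label: of 10 cardiomyocyte markers, cells G and H had counts for 1 and cell F for 2, against 6 to 8 in every other cell.

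Troponin is the calcium switch of the thin filament of striated muscle. Troponin C binds calcium, troponin I inhibits the contact of actin with myosin until calcium arrives, and troponin T ties both to tropomyosin. The heart uses Tnnc1 and Tnnt2 from early development, but exchanges its troponin I: the fetal heart makes the slow skeletal form, Tnni1, and the maturing heart replaces it with the cardiac form, Tnni3, which is a common marker of cardiomyocyte maturity.

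The exchange changes the start of the protein, so the first 99 coding bases of both troponin I genes are shown. Capitals mark the codons of residues 20 to 24 of Tnni3, a run of arginines followed by a pair of serines, and these serines are the known target of protein kinase A.
Tnni3: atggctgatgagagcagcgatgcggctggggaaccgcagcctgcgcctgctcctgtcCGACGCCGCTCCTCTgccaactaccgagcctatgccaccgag
Tnni1: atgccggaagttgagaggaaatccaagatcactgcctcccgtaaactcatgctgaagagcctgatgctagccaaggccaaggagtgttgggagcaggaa
Both come from the GENCODE M21 transcripts of build mm10. The first 32 residues of Tnni3 lay before the aligned part of Tnni1, which holds no such stretch in these bases. Over the 179 aligned residues 63.1% were identical, while the longest stretch of identical transcript was 21 bases, so reads of the 2 genes share little sequence.

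Tnni3 lies on chromosome 7, bases 4518305 to 4524229, minus strand, with 8 exons in its principal transcript and 211 residues. Tnni1 lies on chromosome 1, bases 135779434 to 135810989, plus strand, with 9 exons and 187 residues. Tnnt2 follows Tnni1 on the same strand after 25365 bases, at 135836354 to 135852260, with 16 exons and 302 residues. Tnnc1 lies on chromosome 14, bases 31208312 to 31211729, plus strand, with 6 exons and 161 residues.

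Tnni3 was among the most abundant transcripts of both heart groups, ranking 3 of all listed genes in each. Its level in transplanted cells ran from 23937 to 44143 CPM with a median of 34452 CPM. In adult cells it ran from 13054 to 45644 CPM with a median of 35855 CPM. Of the cultured cells, cell A had 24 counts, 1212 CPM, and the other 7 had none. Every transplanted and every adult cell was therefore above every cultured cell. How many of all listed genes separated the cells in this way was not counted, for Tnni3 or for the members below. The 2 heart groups overlapped in part. Adult cells G and B, at 13054 and 21075 CPM, were below every transplanted cell, and adult cell E was above every one. The group sums stood at 35971 (35646 to 36298) CPM in transplanted, 32559 (32246 to 32874) CPM in adult and 116 (74.6 to 173) CPM in cultured cells.

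Tnni1 had the opposite distribution. It had no count in any of the 8 transplanted or 8 adult cells. Cultured cells A to E had 30, 3, 18, 2 and 15 counts, or 1514, 49.4, 1086, 71.7 and 932 CPM, and the remaining 3 had none. The cultured group stood at 330 (256 to 418) CPM, where Tnni1 ranked 607, above Tnni3 at rank 1986. A count of 0 was given a limit of 3 counts per group, or 2.30 CPM in transplanted and 2.36 CPM in adult cells. The upper bounds of the exact intervals were 2.83 and 2.90 CPM. Both cover counting error only.

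**Figure D1:**
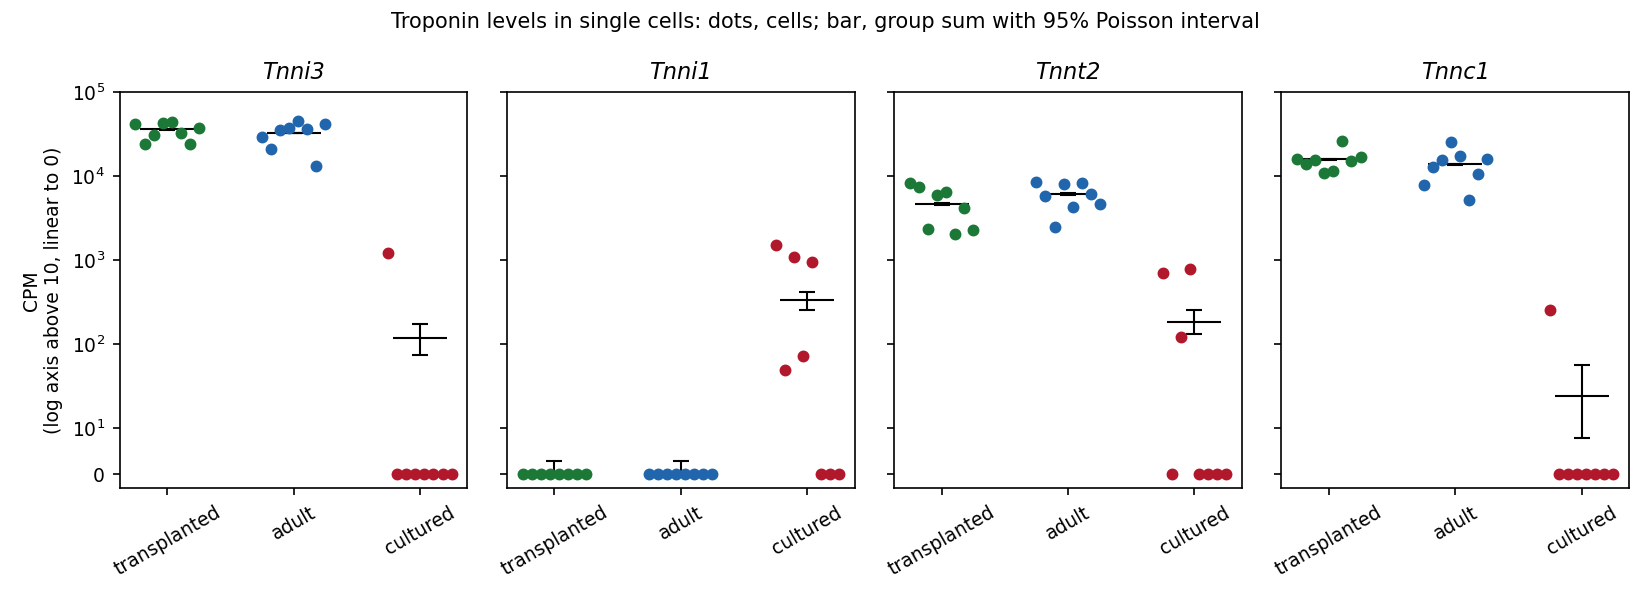
CPM of each troponin gene per cell, on an axis that is logarithmic above 10 and linear to 0. Dots are the 8 cells of each group and the bar is the group sum with its 95% Poisson interval. Tnni3, Tnnt2 and Tnnc1 lie above every cultured cell in all 16 transplanted and adult cells, and Tnni1 has counts in 5 cultured cells. The share of all listed genes with such a gap was not counted.

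The balance of the 2 troponin I genes, taken as Tnni3 counts over the sum of Tnni3 and Tnni1 counts, was 100% in each of the 16 heart cells. With 2418 to 12679 troponin I counts per transplanted cell and 2244 to 8818 per adult cell, the 0 counts of Tnni1 allow it at most 0.0237% to 0.124% of troponin I reads per transplanted cell and 0.0340% to 0.134% per adult cell. Over the group sums these limits were 0.00640% in transplanted and 0.00725% in adult cells.

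Among cultured cells the balance could be read in 5. Cell A held both genes, with a Tnni3 share of 44.4% (30.9% to 58.6%) of 54 counts, and was the single cell of the series with both. Cells B, C, D and E had a Tnni3 share of 0%, with upper interval bounds of 70.8%, 18.5%, 84.2% and 21.8% on 3, 18, 2 and 15 counts. Cells C and E thus had mostly Tnni1 reads by their intervals, whereas 2 or 3 counts leave cells B and D nearly unread. Cells F, G and H had neither gene. The summed cultured share was 26.1% (17.5% to 36.3%), and 0% without cultured cell A, which held all 24 Tnni3 counts. Longer transcripts give more reads per molecule. Per base of principal transcript (912 for Tnni3 and 1150 for Tnni1) the shares were 50.2% in cell A and 30.8% in the group, and per base of all annotated exons 58.3% and 38.1%.

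**Figure D2:**
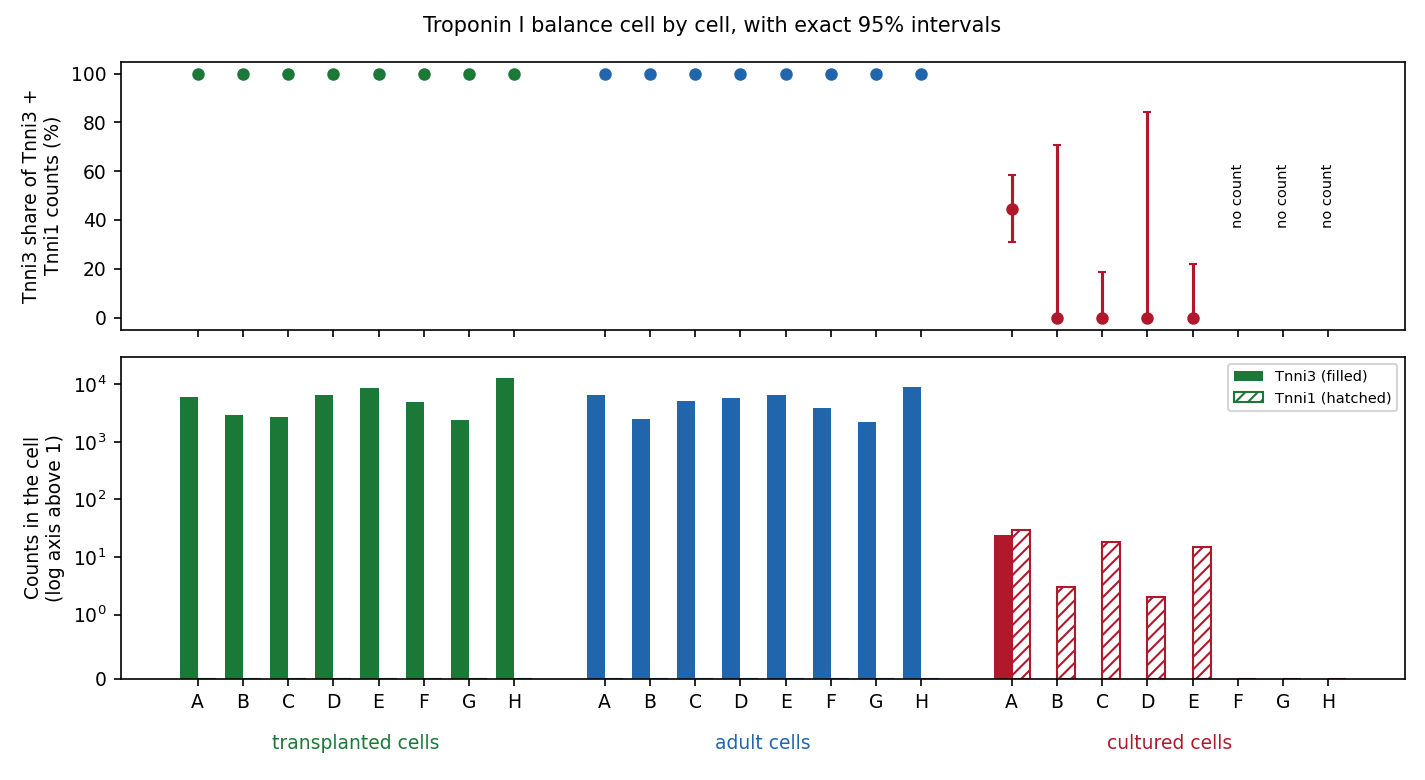
Above, the Tnni3 share of troponin I counts in percent for each cell, with exact 95% intervals, and below, the counts behind it on an axis that is logarithmic above 1. All 16 transplanted and adult cells sit at 100%, cultured cell A at 44.4% and cultured cells B to E at 0%.

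Tnnt2, cardiac troponin T, ran from 2061 to 8249 CPM in transplanted cells with a median of 5091 CPM. Its adult range was 2434 to 8461 CPM with a median of 5914 CPM. Among cultured cells A, C and D had 14, 2 and 22 counts, or 707, 121 and 789 CPM, and 5 had none. All heart cells were above all cultured cells, and transplanted cells C, F and H, at 2365, 2061 and 2295 CPM, were below every adult cell. Those 3 libraries had 553, 662 and 612 genes with counts, against a median of 754 over the transplanted cells, but cell E, with 583 genes, had 6421 CPM of Tnnt2. Group levels were 4624 (4508 to 4742) CPM in transplanted, 6049 (5914 to 6185) CPM in adult and 184 (130 to 253) CPM in cultured cells.

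Tnnc1, the calcium sensor shared by heart and slow skeletal muscle, ran from 10829 to 26183 CPM in transplanted cells with a median of 15130 CPM. In adult cells the range was 5131 to 25036 CPM and the median 14292 CPM. Cultured cell A had 5 counts, 252 CPM, and no other cultured cell had any. Again no cultured cell reached a heart cell, and transplanted cell F was above every adult cell, while adult cells F, A and G, at 5131, 7884 and 10448 CPM, were below every transplanted cell. Tnnc1 ranked 8 of all listed genes in both heart groups. The sums gave 15772 (15557 to 15989) CPM in transplanted, 13783 (13579 to 13988) CPM in adult and 24.3 (7.87 to 56.6) CPM in cultured cells.

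Set against cultured cells, transplanted cells had 309-fold (208 to 482) more Tnni3, 25.1-fold (18.3 to 35.5) more Tnnt2 and 650-fold (279 to 2003) more Tnnc1. Tnni1 was at least 143-fold lower in transplanted cells, against the limit of 3 counts, and at least 111-fold at the lower interval bound of its 68 cultured counts. Thus 3 of 4 members were past 2-fold upward and 1 past it downward. Of the 4958 genes with at least 10 counts over both groups, 26.7% were past 2-fold higher in transplanted cells and 63.9% past 2-fold lower, counted on CPM plus 1. The direction of the 3 is that of the smaller share, and that of Tnni1 is that of most genes.

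Adult cells compared with the same cultured cells had 280-fold (188 to 437) more Tnni3, 32.8-fold (23.9 to 46.4) more Tnnt2 and 568-fold (243 to 1751) more Tnnc1, and Tnni1 was at least 140-fold lower in adult cells, or at least 109-fold at that lower bound. Here again 3 members were past 2-fold upward and 1 downward, against 28.6% and 62% of 5132 genes. Since the cultured cells serve both comparisons, the likeness of these ratios is partly built in. Cultured cell A decided most of them: without it the cultured group had no Tnni3 or Tnnc1 count, and the ratios became lower bounds of 2235 and 980 for transplanted and 2023 and 856 for adult cells, while the Tnni1 bounds were 88.6 and 86.4. Without cultured cell D the Tnnt2 ratios were 51.5 in transplanted and 67.4 in adult cells. With the cultured cells F, G and H left out, which had no count of the 4 genes, the transplanted ratios were 212 for Tnni3, 17.2 for Tnnt2 and 445 for Tnnc1, with a bound of 209 for Tnni1. Scaling by TMM factors multiplied each ratio to cultured cells by 1.89.

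Transplanted and adult cells were close. Over adult, the transplanted ratio was 1.10 (1.09 to 1.12) for Tnni3, 0.764 (0.739 to 0.791) for Tnnt2 and 1.14 (1.12 to 1.17) for Tnnc1. None of the 3 measured members was past 2-fold in either direction, whereas 34.6% of 3501 genes passed it as higher in transplanted cells and 44% as lower. The intervals exclude 1 for counting error, but the cells of the 2 groups overlapped for each gene. By cell medians Tnni3 was lower in transplanted cells, at 34452 against 35855 CPM, so its direction depends on the summary used. The medians of Tnnt2 and Tnnc1 kept the direction of the sums. Tnni1 gave no ratio here, with no count on either side. Adult reads come from rat and were aligned to mouse, so a difference in species match and a difference in level cannot be told apart in any ratio that involves adult cells.

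The cultured cells were read less deeply than the heart cells. Thinned to the 16099 counts of the shallowest cultured cell, every heart cell would keep on average at least 210 counts of Tnni3, 33.2 of Tnnt2 and 82.6 of Tnnc1. Of the 5 cultured cells with Tnni1, 4.42 would be expected to keep a count. In a shallow cultured cell, however, 3 counts equal as much as 186 CPM, so a level below that could be missed there.

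Transplanted and adult cells varied less in Tnni3 than in most abundant genes. Its coefficient of variation over cells was 0.233 in transplanted and 0.334 in adult cells, against a median of 0.576 over 142 genes and 0.535 over 140 genes of at least 1000 CPM. Only 4.23% of those genes were steadier in transplanted cells and 18.6% in adult cells. Tnnt2 had coefficients of 0.509 in transplanted and 0.360 in adult cells, where 43.7% and 22.1% of those genes were steadier. For Tnnc1 they were 0.302 in transplanted and 0.449 in adult cells, with 15.5% and 35.7% steadier. The genes compared were not matched to a member's level, and most stood far below Tnni3, at rank 3. In cultured cells 1 cell held all counts of Tnni3, and its coefficient was 2.83. Any gene with counts in 1 of 8 cells has that value, so it was not ranked against other genes.

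Together the 4 genes took 5.64% of counts in transplanted, 5.24% in adult and 0.0655% in cultured cells. Per cell this share was 4.33% to 6.59% in transplanted cells, 2.96% to 7.08% in adult cells and 0% to 0.369% in cultured cells. The protein complex holds 1 molecule each of troponin C, I and T, but the transcripts were not level. Per base of principal transcript, Tnnc1 stood at 0.555 of troponin I in transplanted and 0.535 in adult cells, and Tnnt2 at 0.0977 in transplanted and 0.141 in adult cells. In cultured cells the values were 0.0812 for Tnnc1 and 0.371 for Tnnt2, on 5 and 38 counts. Cultured cell D gave most of the Tnnt2 value, which was 0.159 without it and 2.17 as a mean over cells, and Tnnc1 was at 0 without cultured cell A. By all annotated exons the heart values were 0.869 for Tnnc1 and 0.0342 for Tnnt2 in transplanted cells, and 0.839 and 0.0494 in adult cells. The cultured values were then nearly equal, 0.157 for Tnnc1 and 0.161 for Tnnt2, so the distance between the members depends on the length used.

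Cells differed widely in the ratio of Tnnc1 to Tnnt2. Reads of Tnnc1 per read of Tnnt2 ran from 1.80 to 12.7 in transplanted cells and from 0.622 to 6.44 in adult cells. Transplanted cell F combined the highest Tnnc1 with the lowest Tnnt2 of its group, and adult cell F the lowest Tnnc1 of its group with 8245 CPM of Tnnt2. As deviations from the group mean of log2(CPM + 1) over the 16 heart cells, Tnnt2 and Tnnc1 had a Pearson r of -0.47, Tnni3 and Tnnc1 0.14, and Tnni3 and Tnnt2 -0.03. These are descriptions of 16 libraries in which both genes of a pair share depth and amplification.

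**Figure D3:**
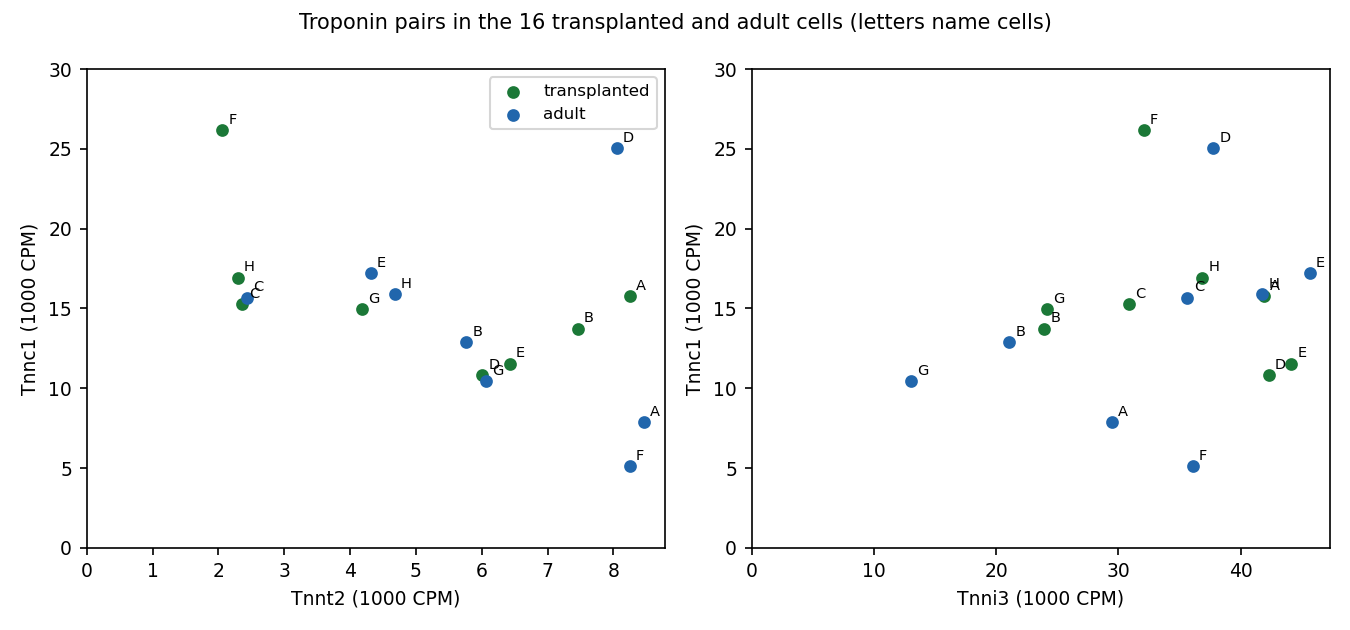
Tnnc1 against Tnnt2 (left) and against Tnni3 (right) in the 8 transplanted and 8 adult cells, in units of 1000 CPM, with letters naming cells. The 4 cells lowest in Tnnt2 (transplanted F, H and C and adult C) have 15282 to 26183 CPM of Tnnc1, while adult cell D is high in both.

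The cultured cells were not alike in what surrounded their troponin reads. Ttn, the giant spring protein of the sarcomere, took 44169, 150806, 102170 and 77893 CPM in cultured cells B to E, against 529 to 7279 CPM in transplanted and 1206 to 8651 CPM in adult cells. Those same 4 cells had 3, 20, 24 and 15 counts over the 4 troponin genes. Cultured cell A had 707 CPM of Ttn and 73 troponin counts, while neither Ttn, nor Myh6, nor any of the 4 troponin genes had a count in F, G or H. The noncoding RNA Rpph1, the RNA part of ribonuclease P, took 2.51% to 5.48% of counts in cells B to E and at most 0.0574% in cells A, F, G and H. It had no count in transplanted cells and at most 0.00179% in adult cells. The ribosomal precursor Rn45s took 0.547% to 1.78% of counts in transplanted, 0.748% to 1.95% in adult and 1.29% to 13.2% in cultured cells. Lengths behind the reads were taken over all annotated exons of each matched gene, with Ttn left out. Their median per cell was 1950 to 2304 bases in transplanted, 2044 to 2353 in adult and 3749 to 6983 in cultured cells. These signs move with the ratios to cultured cells, and their part in the troponin levels was tested only for the counts that Rn45s and Rpph1 take from the total. With both left out of the totals, the transplanted over cultured ratios were 283 for Tnni3, 22.9 for Tnnt2 and 595 for Tnnc1, with a Tnni1 bound of 157, and the adult over cultured ratios 256, 30.0 and 519, with a bound of 153.

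The 10 cardiomyocyte markers used to check the labels took 5.65% to 9.34% of counts in transplanted, 6.04% to 7.86% in adult and 0.00419% to 17.5% in cultured cells. The ventricular list of 4 genes took 4.80% to 9.43% in transplanted, 4.97% to 9.08% in adult cells and 109 counts in all cultured cells. Irx4 had no count in any group, and Hey2 had none in adult or cultured cells. The adult and cultured values thus rest on Myl2 and Myl3 alone. In transplanted cells Myl2 had 55337 and Myl3 40101 of the 95657 counts. Atrial markers had no count in transplanted cells, at most 0.00716% in adult cells and up to 1.17% in cultured cells. Of 8 listed fibroblast genes, none had a count in transplanted cells, 1 had in adult cells and 4 in cultured cells, where they took up to 0.209% of counts. Endothelial genes took at most 0.110% in transplanted and 0.00505% in cultured cells and had no count in adult cells. Smooth muscle and pericyte genes took at most 0.00901% in transplanted, 0.164% in adult and 0.177% in cultured cells. Leukocyte genes had counts in cultured cells alone, at most 0.0362%.

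The troponin genes of skeletal muscle gave few reads. Tnni2, the fast skeletal troponin I, had 84 counts in transplanted cell B and 348 in adult cell A and none in the other 22 cells. Tnnt1, the slow skeletal troponin T, had none in transplanted or adult cells, and 2 and 10 counts in cultured cells A and F. Tnnt3 and Tnnc2, the fast forms of troponin T and C, had no count in any cell. Tnnt1 lies 1923 bases from Tnni3 on the same strand, and its 0 counts stand beside 46865 counts of Tnni3 in transplanted and 41399 in adult cells. Dnaaf3 shares 86 exon bases with Tnni3 and had 0 counts in transplanted, 0 in adult and 5 in cultured cells. Nisch spans Tnnc1 on the other strand without a shared exon base, with 77, 2 and 115 counts in transplanted, adult and cultured cells. Whether reads were counted by strand is not given in the sources used here.

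Troponin acts with the rest of the thin filament, so 14 further genes of it were read. Of 11 measured in transplanted over cultured cells, 7 were higher by 2-fold or more and 3 lower, with a median log2 ratio of 3.46 against -5.63 over all genes. With groups at 0 set to the 3-count limit the count higher was 6 and the medians 1.01 and -4.04. In adult over cultured cells 8 of 12 were higher and 4 lower, with a median of 3.24 against -3.85, or 7 higher and 2.87 at the limit. Tpm1, the main tropomyosin of heart muscle, stood at 36509 CPM in transplanted, 36226 CPM in adult and 907 CPM in cultured cells. Actc1, cardiac actin, stood at 22490 CPM in transplanted, 15223 CPM in adult and 902 CPM in cultured cells. The lower ones hold the other tropomyosins: Tpm2 and Tpm4 had 31 and 14 counts in cultured cells and none in either heart group. Nebl, which encodes the Z-disc protein nebulette, likewise had 27 counts, all in 1 cultured cell.

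Between transplanted and adult cells, 3 of 10 measured thin filament genes were past 2-fold higher in transplanted cells and 4 lower, which is near the 34.6% and 44% of all genes. Acta1, skeletal actin, which rodent hearts also express, stood at 9.98 CPM in transplanted and 899 CPM in adult cells, 0.0111-fold (0.00589 to 0.0191). Tpm1 differed by 1.01-fold (0.995 to 1.02). Tmod1, the cap of the pointed filament end, was 12.1-fold (8.45 to 17.8) higher in transplanted cells, on counts in 2 transplanted cells and 1 adult cell.

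**Figure D4:**
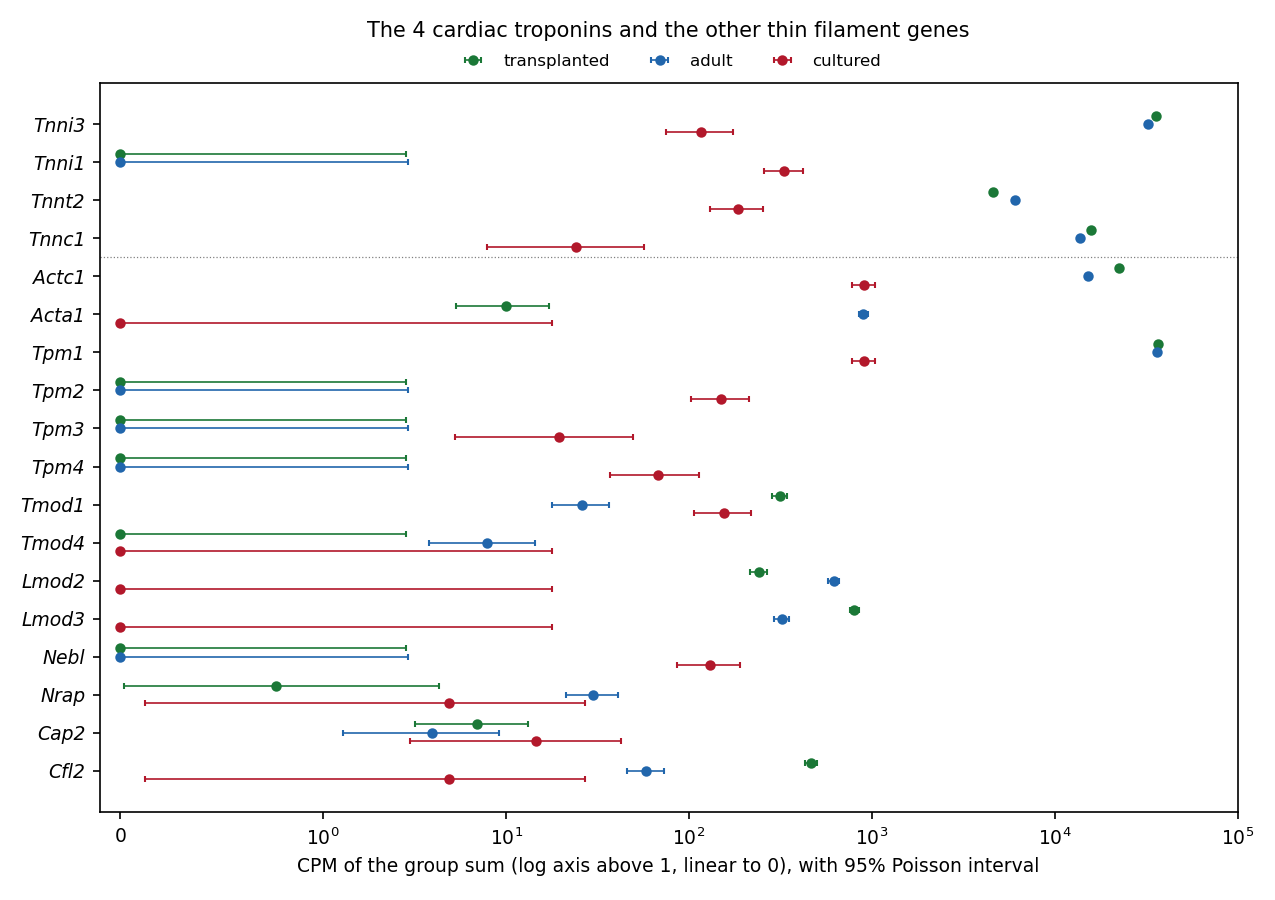
CPM of the group sums with 95% Poisson intervals for the 4 troponin genes (above the dotted line) and 14 other thin filament genes, on an axis that is logarithmic above 1. Tnni1 shares with Tpm2, Tpm3, Tpm4 and Nebl a pattern of counts in cultured cells and 0 in both heart groups. The share of all listed genes with this pattern was not counted. The median log2 ratio of all genes in transplanted over cultured cells, -5.63, equals that of Prkacb, with 0 transplanted and 10 cultured counts. A 0 in transplanted cells therefore does not set these genes apart. In adult over cultured cells the median was -3.85.

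Of 17 thick filament and Z-disc genes, all measured, 10 were past 2-fold higher and 7 lower in transplanted over cultured cells, with a median log2 ratio of 2.31, beside 26.7% and 63.9% of all genes and their median of -5.63. For adult over cultured cells 10 were higher and 6 lower, with a median of 2.69, beside 28.6%, 62% and -3.85. Myl3, the ventricular essential light chain, was 334-fold (214 to 555) higher in transplanted and 286-fold (183 to 476) higher in adult cells, a ratio near that of Tnni3. Myl7, the atrial regulatory light chain, matched Tnni1 in having 0 counts in both heart groups, against 331 in cultured cells. How many of all listed genes did so was not counted. Ttn was at 0.0472-fold (0.0453 to 0.0493) in transplanted and 0.0899-fold (0.0869 to 0.0930) in adult cells. Between transplanted and adult cells 1 of 15 was higher and 3 lower, beside 34.6% and 44% of all genes.

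Of genes that act on troponin, the phosphatase genes Ppp1cb and Ppp2ca had the highest levels, at 1504 and 1038 CPM in cultured cells. They stood at 143 and 173 CPM in transplanted cells and at 296 and 89.7 CPM in adult cells. Of 7 measured kinases and phosphatases, 2 were higher and 5 lower in transplanted over cultured cells, beside 26.7% and 63.9% of all genes. Of 8 in adult over cultured cells, 2 were higher and 5 lower, beside 28.6% and 62%. Prkaca, a catalytic subunit of protein kinase A, had 42 counts in 2 transplanted cells, 69 in 5 adult cells and none in cultured cells. Prkacb, another catalytic subunit, went the other way, with 10 counts in 3 cultured cells and none in either heart group. Tnni3k, a cardiac kinase named for its binding to troponin I, had 272 counts in transplanted cell H, 7 in 1 adult cell and none in cultured cells. All 6 measured splicing regulators known to act on Tnnt2 or other sarcomere genes were lower against cultured cells in both heart groups, with medians of -7.89 in transplanted and -6.07 in adult cells. Most genes were lower there too, at 63.9% and 62%. At the 3-count limit the transplanted median was -6.63 against -4.04 over all genes. Mbnl1, a splicing factor of muscle maturation, had 0 counts in transplanted, 6 in adult and 84 in cultured cells.

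Cardiac transcription factors had at most 187 counts in any group, those of Mef2a in adult cells. In transplanted over cultured cells 2 of 11 were higher and 9 lower, and in adult over cultured cells 2 of 13 higher and 8 lower. Of all genes, 26.7% were higher and 63.9% lower in transplanted cells, and 28.6% and 62% in adult cells. In transplanted over adult cells 3 of 11 factors were higher and 8 lower, beside 34.6% and 44% of all genes. The median log2 ratio there was -3.84 against -0.367 over all genes, or -2.65 at the 3-count limit. Tead1, which binds the MCAT element of cardiac promoters, had 0 counts in transplanted, 154 in adult and 93 in cultured cells. Myocd, a coactivator of serum response factor, had 100 counts in 1 transplanted cell, 3 in 1 adult cell and 142 in 4 cultured cells. Levels of these factors rested on 1 or 2 cells in many cases, and nothing on the troponin genes was read from them.

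Since Tnni3, Tnnt2 and Tnnc1 were high in the same cells and Tnni1 was not, the 250 bases before the most upstream RefSeq start of each gene (build GRCm38.p6) are shown, on the strand of the gene. Capitals mark matches to GATAA, the core bound by GATA factors, and CATTCC, the MCAT core, on either strand.
Tnni3, chr7:4522529-4522778, minus strand: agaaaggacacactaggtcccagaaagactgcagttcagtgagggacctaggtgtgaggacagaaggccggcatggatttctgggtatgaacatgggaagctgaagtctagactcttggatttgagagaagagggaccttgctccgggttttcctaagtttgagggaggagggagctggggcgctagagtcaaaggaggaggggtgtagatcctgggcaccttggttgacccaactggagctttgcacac
Tnni1, chr1:135799171-135799420, plus strand: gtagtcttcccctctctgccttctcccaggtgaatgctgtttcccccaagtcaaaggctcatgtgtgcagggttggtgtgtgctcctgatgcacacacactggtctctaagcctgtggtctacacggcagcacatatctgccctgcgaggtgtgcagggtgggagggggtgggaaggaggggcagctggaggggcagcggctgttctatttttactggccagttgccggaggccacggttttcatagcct
Tnnt2, chr1:135836084-135836333, plus strand: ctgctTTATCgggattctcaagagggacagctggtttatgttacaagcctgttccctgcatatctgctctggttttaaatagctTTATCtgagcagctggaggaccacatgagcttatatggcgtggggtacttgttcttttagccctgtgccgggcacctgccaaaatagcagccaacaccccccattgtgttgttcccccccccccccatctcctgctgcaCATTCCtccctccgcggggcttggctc
Tnnc1, chr14:31208062-31208311, plus strand: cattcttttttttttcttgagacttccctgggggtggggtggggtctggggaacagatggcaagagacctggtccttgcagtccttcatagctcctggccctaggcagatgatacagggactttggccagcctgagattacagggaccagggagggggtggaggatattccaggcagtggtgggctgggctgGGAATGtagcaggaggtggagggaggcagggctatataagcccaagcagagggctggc
GATAA was found 2 times in the Tnnt2 window and in no other, and in 22.6% of 32851 RefSeq windows of this length. CATTCC was found once each before Tnnt2 and Tnnc1, and in 12.6% of all windows. The E-box core CANNTG, not capitalised, occurred 1 time before Tnni3, 4 times before Tnni1, 4 times before Tnnt2 and 2 times before Tnnc1, and in 66.2% of all windows. TATAAA (12.4% of windows), the MEF2 motif (0.508%) and the CArG box (1.47%) had no match in the 4 windows. None of these motifs was shared by Tnni3, Tnnt2 and Tnnc1 and missing before Tnni1.

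Genes were ranked over all 24 cells by Spearman's rho of log2(CPM + 1). The 2379 genes compared had at least 10 counts in all and counts in at least 4 cells. Most like Tnni3 were Cox5a (0.87), Tuba4a (0.86), Mrpl51 (0.84), Myl2 (0.84) and Myl3 (0.84). Tnnc1 was most like Myl2 (0.94), the ventricular regulatory light chain, and Tnnt2 most like Atp5e (0.82). Tnni1 was most like Cul1 (0.99), Sgms1 (0.97), Cblb (0.97) and Cpd (0.97), which had 67 to 129 counts, all in cultured cells. These values mainly follow the gap between heart and cultured cells. Within the heart groups, over 113 genes with counts in all 16 cells, deviations of Tnni3 were most like those of Atp5g3 (Pearson r 0.77), those of Tnnc1 most like Pgam2 (0.76) and Myl2 (0.74), and those of Tnnt2 most like Lpl (0.67) and Ttn (0.44). Myl2 thus stood near the top for Tnnc1 by both measures.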

How the data were processed

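Single cells were flow sorted or picked by hand, and their RNA was copied by template switching, amplified and cut with Tn5, per the labels' protocols. The deposited values are whole-number read counts per gene and cell. TopHat2 2.1.0, HTSeq, DESeq2 and build mm10 are listed, for the rat cells as well, per the submitters' processing notes. The annotation is not given in the sources used here, nor is the strand setting. Counts per group were summed and divided by the group total, with exact Poisson, conditional binomial and Clopper-Pearson intervals at 95%. A group at 0 was set to 3 counts, giving a bound, and no ratio was taken where both groups had at most 3. Genes were called past 2-fold among those with at least 10 counts. Pairs of cells within a group all differed by more than counting noise (chi-square per degree of freedom at least 13.6). Of 9595 symbols, 9343 matched GENCODE M21. Scaling alternatives used edgeR 4.0.16 and DESeq2 1.42.0 on group sums, with no model fitted. Named genes are the members, the fixed lists, neighbours within 50 kb and the 5 genes most like each member, of which the text prints a part. Members and lists were chosen with earlier results of these data known. Ratios and calls were checked on simulated counts with Poisson noise alone, so spread between cells was not covered. The genes changed there had more counts than any member had in cultured cells. The check therefore does not reach the members' ratios to cultured cells.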

Additional observations from a re-analysis of the deposited data

Results flagged for a closer look

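A cell was picked out where its gap to the nearest other cell of its group made up more of the group's range than Dixon's 95% critical value for 8 values allows. Of 20 sets of 8 cells tested, 7 were picked out, where chance gives about 1 in 20, and a gene with counts in 1 cell is always picked out. Tnnc1 in transplanted cell F, at 26183 CPM, was the one such value of a member in a heart cell, against a group median of 15130 CPM. Cultured cell A was picked out for Tnni3, at 1212 CPM, for Tnnc1, at 252 CPM, and for the share of counts taken by the 4 genes, at 0.369%, against group medians of 0, 0 and 0.0455%. Tnni2 stood apart in transplanted cell B, at 676 CPM, and in adult cell A, at 1555 CPM, with no count in the other 7 cells of either group. Tnnt1 stood apart in cultured cell F, at 541 CPM, which had no count of the 4 cardiac genes.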

How the results depend on the processing

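No ratio of a member between groups turned direction under the settings tried. Cell medians were not among these settings. For Tnni3 they went the other way, at 34452 CPM in transplanted and 35855 CPM in adult cells. Within cultured cells, Tnnt2 per troponin I was 0.371 from the sums but 2.17 with equal cell weights, where cell D alone gave 10.5, and the Tnni3 share of cultured cell A was 44.4% of counts but 58.3% per base of all exons. TMM factors shifted every log2 ratio to cultured cells by 0.92, giving 584 and 530 for Tnni3, 47.4 and 62.2 for Tnnt2, and bounds of 75.8 and 73.8 for Tnni1, in transplanted and adult cells. DESeq2 size factors shifted them by 0.22 and 0.14. Transplanted over adult they gave 1.17 for Tnni3, 0.812 for Tnnt2 and 1.22 for Tnnc1. With equal cell weights these were 1.06 for Tnni3 and 0.813 for Tnnt2, the Tnni1 bounds 198 and 194, and the cultured Tnni3 share 8.89%, which was 38.1% per base of all exons. Leaving out cultured cells F, G and H, chosen after seeing the data, gave Tnni1 bounds of 209 and 204 and Tnnt2 ratios of 17.2 and 22.5 for transplanted and adult cells. Without a count minimum, 6149 and 6055 genes were at least 2-fold lower in transplanted and adult than in cultured cells, and 5 thin filament genes were lower in transplanted cells, against 3167, 3180 and 3.

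Leaving out 1 cell at a time gave, for transplanted over cultured, 218 to 2235 (a bound) for Tnni3, 88.6 to 194 for the Tnni1 bound, 17.7 to 51.5 for Tnnt2 and 459 to 980 (a bound) for Tnnc1. For adult over cultured it gave 197 to 2023 (a bound), 86.4 to 189, 23.1 to 67.4 and 401 to 856 (a bound). Transplanted over adult ran from 1.01 to 1.17 for Tnni3, 0.691 to 0.903 for Tnnt2 and 1.05 to 1.29 for Tnnc1. The cultured Tnni3 share ran from 0% to 32.4%. No paired analysis was possible because the letters only name cells and no test was made. The limits are the 1 sample per group, the 206178 counts of all cultured cells, and rat reads aligned to mouse.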
